A study of Mus musculus with 171 samples.

Results

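The genes described here are 42 mouse cell cycle genes, 20 whose transcripts or products serve the S phase and 22 that serve G2 and mitosis (G2/M). They were chosen by gene symbol, from Mcm2 to Cdc45 for S and from Ccnb1 to Ttk for G2/M. Each of the 42 symbols matched 1 Ensembl identifier among the 49671 gene rows of a count table of single cells. The cells came from early mouse embryos with and without Stat3, the transcription factor through which LIF signalling sustains naive pluripotency.

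A dividing cell copies its DNA in S phase and separates the copies in mitosis. The MCM helicase is loaded on DNA by CDC6 and CDT1 and starts replication together with CDC45 and the GINS complex, while cyclin E and its kinase drive entry into S phase. E2F factors activate many S phase genes, and the DREAM and MYB-MuvB complexes, which bind the CHR element, hold back and then activate many G2/M genes.

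Cells labelled Stat3 -/- are called MUT and cells labelled Stat3 +/+ are called WT. At embryonic day (E) 3.5 there were 55 inner cell mass (ICM) cells of 5 MUT embryos and 64 of 5 WT embryos. At E3.75 there were 9 epiblast (EPI) and 14 primitive endoderm (PrE) cells of 4 MUT embryos, and 19 EPI and 10 PrE cells of 3 WT embryos. The day of these 52 cells is taken from their titles, since their source label names E3.5. Nothing in the labels says how the Stat3 alleles were made, how EPI and PrE cells were told apart or what strain was used. Counts were summed over the cells of an embryo and lineage, which gave 24 sums, and the embryo is the replicate throughout. A cell weighs in a sum by its count total, so a few deep cells can dominate. In WT ICM embryo 16 (15 cells), single cells held 24609224 and 25095390 of the 122331780 counts. Levels are given in CPM, counts scaled to a common library total with edgeR's TMM factors over the 24 sums.

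Sequences just before the transcription start are shown for 3 G2/M and 2 S members because their motifs are a feature of the 2 lists that no expression value enters. RefSeq windows (GRCm38.p6) of 250 bases before to 50 bases after the start were found for 34 of the 42 members, 16 S and 18 G2/M. Printed are 150 bases that end at the RefSeq start, or for Cdk1 26 bases before it, 5′ to 3′ on the strand of the gene, with motif matches in capitals. The searched motifs were TTTNNCGC for E2F, TTTGAA for the CHR element and CCAAT for NF-Y, each on both strands, so their reverse complements (such as TTCAAA and ATTGG) are matches too. Neighbouring matches may overlap, as in Mcm6.
Mcm6, chr1:128359706-128359855, minus strand: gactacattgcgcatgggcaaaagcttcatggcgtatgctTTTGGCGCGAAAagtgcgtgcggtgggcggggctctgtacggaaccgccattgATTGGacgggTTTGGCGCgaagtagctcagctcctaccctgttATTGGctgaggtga
Mcm5, chr8:75109359-75109508, plus strand: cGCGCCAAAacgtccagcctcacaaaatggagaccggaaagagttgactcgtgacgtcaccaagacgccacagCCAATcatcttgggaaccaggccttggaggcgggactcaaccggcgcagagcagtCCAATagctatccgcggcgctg
Kif11, chr19:37376232-37376381, plus strand: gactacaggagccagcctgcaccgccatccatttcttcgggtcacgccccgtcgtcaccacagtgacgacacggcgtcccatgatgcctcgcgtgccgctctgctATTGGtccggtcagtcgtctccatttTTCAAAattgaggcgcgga
Top2a, chr11:99024190-99024339, minus strand: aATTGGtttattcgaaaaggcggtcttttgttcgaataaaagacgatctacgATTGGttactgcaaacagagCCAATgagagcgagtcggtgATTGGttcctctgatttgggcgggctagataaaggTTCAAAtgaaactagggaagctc
Cdk1, chr10:69352939-69353088, minus strand: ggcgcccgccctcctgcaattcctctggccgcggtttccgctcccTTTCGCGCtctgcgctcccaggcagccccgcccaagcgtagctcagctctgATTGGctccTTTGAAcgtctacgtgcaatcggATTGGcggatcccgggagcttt

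Kif11, Top2a and Cdk1 show a CHR match beside 1 or more CCAAT matches, and Mcm5 and Mcm6 show E2F and CCAAT matches. A CHR match occurred in 13 of 18 G2/M windows (72.2%) and in 3 of 16 S windows (18.8%), beside 17.9% of all 32851 windows of the same length. Both CHR and CCAAT were present in 13 of 18 G2/M and 2 of 16 S windows, beside 6.95% of all windows. The E2F match was in 7 of 16 S windows (43.8%), Mcm5 and Mcm6 among them, and in 1 of 18 G2/M windows, that of Cdk1, beside 5.17% of all windows. For 30 of the 34 members the RefSeq start lay within 100 bases of the gene start annotated by GENCODE. It lay 539 bases away for Mcm7 and 350 for Cdc6, which both have an E2F match, 224 for Fen1 and 134 for Pcna. CCAAT, with or without another motif, was in 10 of 16 S and 16 of 18 G2/M windows, beside 37.4% of all. These are letter matches and say nothing of binding in these cells.

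Total counts per cell ran from 163822 to 25095390, with group medians of 3404703 to 5064704.5 in the ICM and 10407966 to 11168799 at E3.75, so depth cannot be told apart from stage. Title letters D to H occur only at E3.5 and A to C only at E3.75, and its meaning was not stated by the labels. Stat3, the targeted gene, did not overlap between genotypes within a lineage: its MUT sums reached at most 12.3 CPM in the ICM, 26.3 in EPI and 21.4 in PrE, and its WT sums were at least 43.9, 84.5 and 24.3 CPM. By Y-linked and Xist reads, 1 of 5 MUT and 3 of 5 WT embryos at E3.5 and 4 of 4 MUT and 1 of 3 WT embryos at E3.75 were male. The sums that stand apart are 4. In MUT ICM embryo 10 (19 cells) 1 cell held 960 of the 1088 Y-linked counts of the embryo together with 1913 Xist counts. MUT EPI embryo 2 and WT PrE embryo 3 are single cells, and WT PrE embryo 1 (3 cells) held 3860.5 CPM of 7 trophectoderm markers, of which Krt8 made up 2370.3, against 105 to 1111 in the other PrE sums. In that sum the 8 EPI markers summed to 1216 CPM and the 9 PrE markers to 1214, against 3166 and 3636 CPM of PrE markers in WT PrE embryos 2 and 3. The 8 EPI markers summed to 323 to 847 CPM over MUT ICM embryos and to 1991 to 2724 CPM over WT ICM embryos; at E3.75 they summed to 1015 to 2632 CPM over MUT EPI and 2361 to 2997 over WT EPI. The part that these markers play in the cell cycle values was not tested. In sums of cells, fewer cells in a phase and less RNA per cell cannot be told apart.

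All 42 members were expressed in every group. Per kilobase of exon, the S list was led by Rrm2, the small subunit of ribonucleotide reductase, at 119.7 CPM per kb as a mean of the 6 groups, and by Pcna, the sliding clamp of DNA polymerase, at 109.7. The lowest S members were Fen1, the flap endonuclease of lagging strand synthesis, at 7.0 CPM per kb, and Ccne2, cyclin E2, at 5.0. The G2/M list was led by the genes of 2 proteins of mitotic degradation, Cdc20, an activator of the anaphase-promoting complex (APC/C), at 228 CPM per kb, and Ube2c, its E2 enzyme, at 148. Its lowest members were Cenpf, a kinetochore protein, at 5.78 CPM per kb, and Cdc25c, a phosphatase that activates CDK1, at 4.19. Reads of Cdc20, Ube2c, Fen1, Ccne2 and Cdc25c share exonic positions with a gene on the other strand, and Pcna has named pseudogenes. The strand setting of the counting was not stated, so these levels are uncertain.

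**Figure D1:**
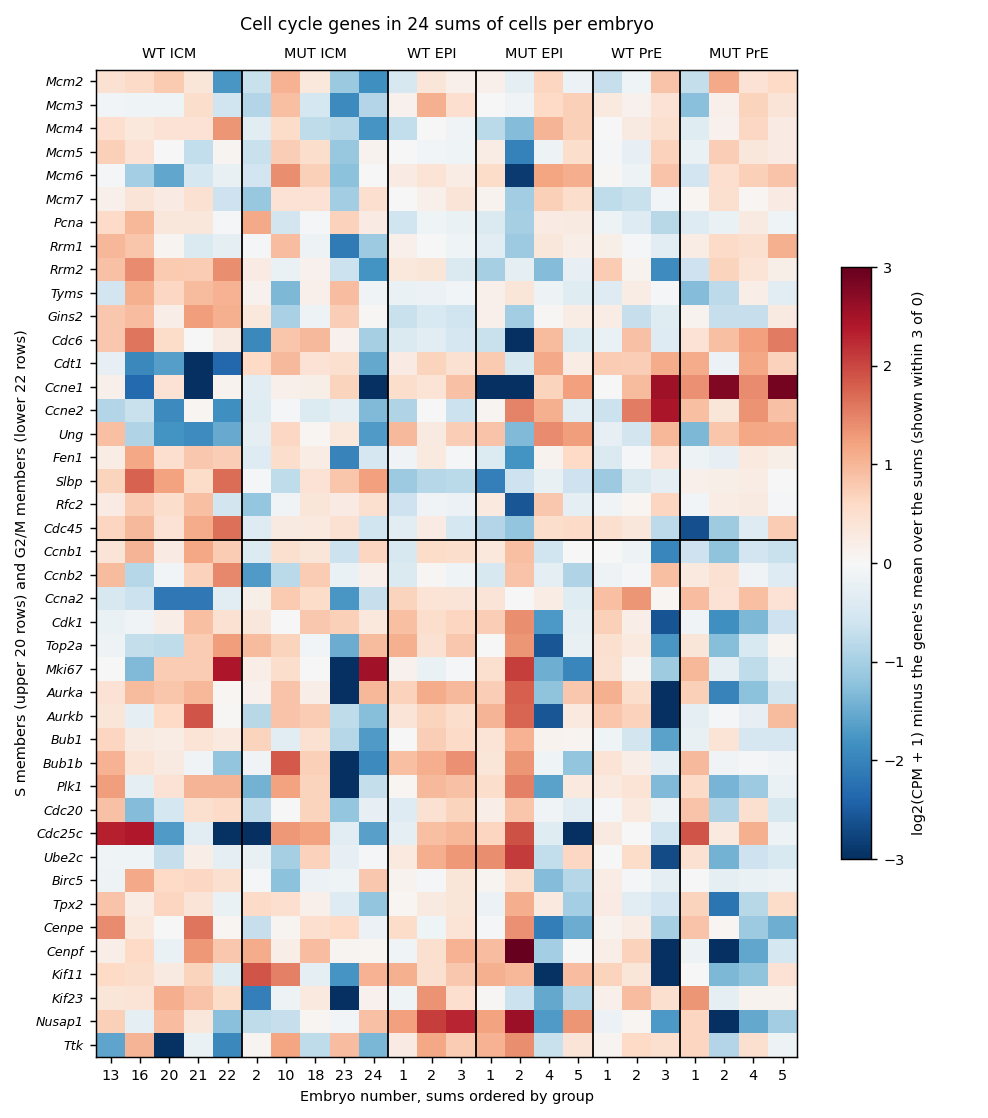
Level of each of the 42 genes (rows) in the 24 sums (columns, by embryo number within group), as log2(CPM + 1) minus the mean of the gene over the sums; colours end at 3 above and below. The G2/M rows of MUT EPI embryos 2 and 4 take opposite colours, and Slbp is darkest red in WT ICM.

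Some members barely moved between groups and others spread widely. Mcm5, an MCM subunit, had group means from 333 to 445 CPM, a ratio of 1.33, and Cdc20 from 345 to 480.4 CPM, a ratio of 1.39. Mcm5 stood at 402 ± 139 CPM in WT ICM and 376 ± 184 in MUT ICM (SD, n = 5 each), at 339 ± 14 in WT EPI (n = 3) and 333 ± 181 in MUT EPI (n = 4), and at 406 ± 147 in WT PrE (n = 3) and 445 ± 118 in MUT PrE (n = 4). Every neighbouring pair in that order lies within the spread of its groups. Pcna had means of 360.0 CPM in WT ICM and 343 in MUT ICM against 191 to 242 in the 4 E3.75 groups. Mki67, which coats mitotic chromosomes and is the common proliferation marker, had means of 47.0 to 100.4 CPM with SDs up to 110.0, since single ICM embryos reached 268 and 284 CPM while others of their groups stood at 18.9 and 1.95. The widest ratio of group means belonged to Ccne1 (6.55, highest in MUT PrE and lowest in WT ICM), followed by Nusap1 (6.41, highest in WT EPI and lowest in MUT PrE). WT EPI was the group with the highest mean for 9 of the 22 G2/M members and WT ICM for 8, whereas the lowest mean fell to MUT PrE for 9 and to WT PrE for 6.

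Single cells were scored to see how the members move together. Each cell was thinned at random to 500000 counts, where 1 count is worth 2 CPM, which left out 5 MUT and 2 WT ICM cells and kept 164. The S score is the mean over the 20 S members of log2(CPM + 1), each gene taken relative to the mean of its 6 group means, and the G2/M score is the same over 22 members. At this depth the median share of cells with a count was 88.9% to 100% of a group over the members of either list; without thinning it was 98.2% to 100%. The least often detected members were Cdc25c, with counts in 23 of 62 WT ICM cells after thinning, and Ccne1 and Ccne2, each with counts in 24 of 62.

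The S and G2/M scores were positively correlated in both ICM groups and negatively in 3 of the 4 E3.75 groups. The Pearson r was 0.410 in 62 WT and 0.542 in 50 MUT ICM cells, and 0.477 over the 112 cells centred within groups. At E3.75 it was -0.654 in 9 MUT EPI cells, -0.402 in 14 MUT PrE cells and -0.749 in 10 WT PrE cells. In the 19 WT EPI cells it was 0.0971. Scores were not centred within embryos or title letters, so each r includes differences between embryos. In MUT EPI the 3 cells of letter B had mean S and G2/M scores of -0.444 and 1.34. The 6 cells of letter A had means of 0.706 and -1.12. Correlation within embryos was not tested. Over the 52 E3.75 cells, centred within groups, r was -0.517. Correlations of single genes with the lists were computed for the 42 members only. The share of all genes with the signs given next is therefore not known. Over the same 52 cells each of the 22 G2/M members correlated positively with the mean of the other G2/M members (median r 0.605) and negatively with the S list (median r -0.323). The tightest were Birc5, the survivin subunit of the chromosomal passenger complex (r 0.847), Ube2c (0.829), Cenpf (0.810) and Plk1, a mitotic kinase (0.803). Among S members the helicase subunits Mcm4 (0.766) and Mcm6 (0.703) followed their own list most closely, and 17 of 20 S members were negatively correlated with the G2/M list. The other 3, Rrm2, Tyms (thymidylate synthase) and Gins2 (a GINS subunit), had r of 0.0418, 0.175 and 0.0388 with the G2/M list and of 0.189, 0.0797 and -0.0363 with their own.

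In the ICM the median r of a G2/M member with its own list was 0.365 and with the S list 0.194. Birc5 stood apart, with r of -0.367 to the other G2/M members and -0.493 to the S members, though it had counts in all 112 thinned ICM cells. Its levels over WT ICM embryos 13, 16, 20, 21 and 22 were 253, 623, 431, 433 and 396 CPM. The points of these correlations share libraries, depth and embryos. After thinning, the number of genes detected per cell had r of 0.381 with the S score and 0.497 with the G2/M score in the ICM, and of -0.285 and 0.472 at E3.75. By group, these r were 0.239 and 0.429 in WT ICM and 0.665 and 0.713 in MUT ICM. At E3.75 they were -0.745 and 0.714 in WT PrE and -0.628 and 0.607 in MUT EPI. They were -0.111 and 0.505 in MUT PrE and 0.0967 and 0.750 in WT EPI. The part of the number of genes detected in the correlations was not tested.

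**Figure D2:**
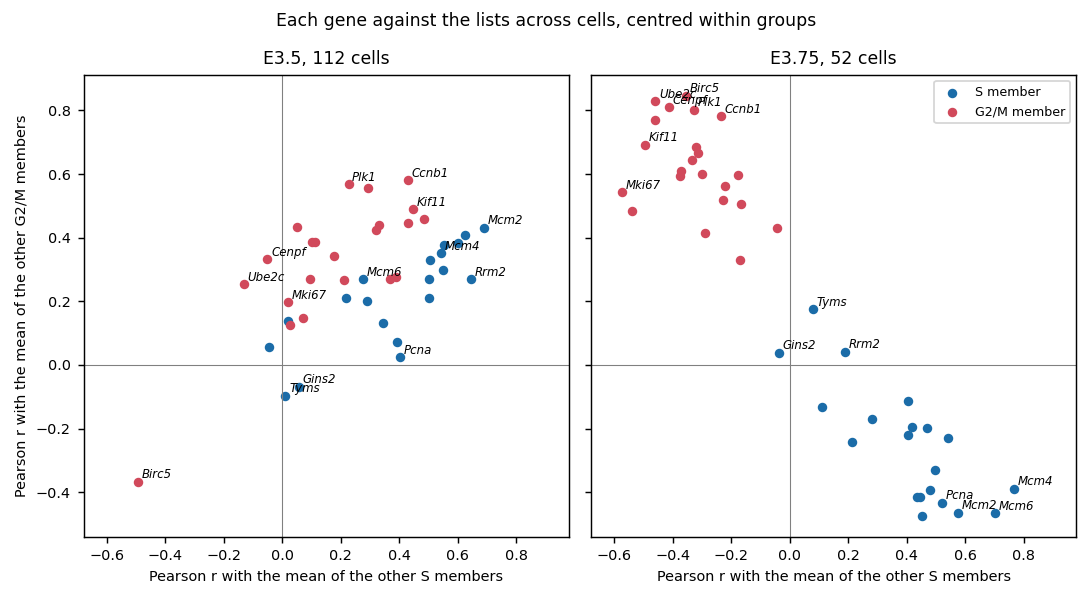
Pearson r of each gene with the mean of the other S members (x axis) and of the other G2/M members (y axis) over thinned cells centred within groups, left at E3.5 and right at E3.75. At E3.75 the red G2/M genes sit at upper left and most blue S genes at lower right, while at E3.5 both lie mostly in the upper right quadrant, with Birc5 alone at lower left.

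WT EPI cells had the smallest SD of the G2/M score over cells, 0.456, against 0.899 to 1.88 in the other 5 groups. Their G2/M score ran from -0.0545 to 1.76 with a median of 1.26 over 19 cells, and the G2/M score exceeded the S score in 18 of them. The medians of WT EPI embryos 1, 2 and 3 were 0.717, 1.37 and 1.27 for G2/M and -0.0956, 0.384 and 0.225 for S. MUT EPI cells spread most, with an SD of 1.88. The 3 cells of embryos 1 and 2 (title letter B) had G2/M scores of 1.0 to 1.86 and S scores of -1.04 to -0.0762, and the 6 cells of embryos 4 and 5 (letter A) had S scores of 0.484 to 0.898 and G2/M scores of -2.73 to 1.46. The embryo medians for G2/M were 1.08, 1.86, -2.12 and -1.33 in MUT EPI embryos 1, 2, 4 and 5, so the WT embryos lie inside the MUT range. Letter A was also that of WT EPI embryo 3, whose 7 cells scored 1.09 to 1.76 for G2/M.

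The group means over embryos of the G2/M score were 1.12 ± 0.353 in WT EPI (SD, n = 3) and -0.129 ± 1.90 in MUT EPI (n = 4), a difference of -1.25 that is smaller than the MUT spread. Without the single cell of MUT EPI embryo 2 the difference was -1.91, without MUT embryo 4 it was -0.585 and without MUT embryo 5 -0.847. The S score differed by -0.130, from WT to MUT from 0.171 ± 0.244 to 0.0413 ± 0.827, and by 0.231 without MUT embryo 2. In PrE the G2/M score was 0.370 ± 1.16 in WT (n = 3) and -0.183 ± 0.714 in MUT (n = 4), and the S score was 0.198 ± 0.508 and 0.440 ± 0.453; both differences are within the spread of embryos. Without the single cell of WT embryo 3 the G2/M difference was -1.22 and the S difference 0.534, and without WT embryo 1 they were -0.145 and 0.0806, against -0.553 and 0.242 with all embryos. Of 14 MUT PrE cells 11 had the S score above the G2/M score and above 0, among them 5 of 5 cells of embryo 4 and 4 of 5 of embryo 5. The same held for 4 of 10 WT PrE cells, and the other 6 had the G2/M score ahead.

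ICM cells ranged widely in both scores. The S score ran from -3.63 to 0.680 in WT and from -2.86 to 0.916 in MUT cells. Each gene was centred on the mean of its group means, those of EPI and PrE included. The share of ICM cells at or below 0 therefore depends on the EPI and PrE groups. Both scores were at or below 0 in 41 of 62 WT cells (66.1%, exact binomial 95% interval 53.0% to 77.7%) and in 22 of 50 MUT cells (44.0%, 30.0% to 58.7%), intervals that cover sampling of cells only. Genes detected per thinned cell had medians of 6135 in WT and 7346 in MUT ICM. That number correlated positively with both scores in each genotype. Its part in the difference between the shares was not tested. MUT embryo 10 held no cell with both scores at or below 0. Of its 19 cells, 14 had the G2/M score ahead and 5 the S score, and its embryo medians were 0.425 for S and 0.828 for G2/M. Without this embryo the MUT share was 22 of 31 cells (71.0%, 52.0% to 85.8%), above the WT share, and the mean of the embryos' own shares was 59.5% in MUT and 65.0% in WT. The 9 PrE markers summed to 2624 CPM in this embryo and to 99.5 to 1008 CPM in the other 4, and their part in its scores was not tested. The other 4 MUT embryos had medians of -1.51 to -0.486 for S and -2.30 to -0.558 for G2/M, and the 5 WT embryos -0.920 to -0.122 and -1.23 to -0.379. Averaged over embryos, the scores of the genotypes differed by -0.0119 for S and -0.0492 for G2/M. Leaving out 1 embryo turned the sign of both: the S difference ran from -0.272 without MUT embryo 10 to 0.212 without MUT embryo 24, and the G2/M difference from -0.443 without MUT embryo 10 to 0.338 without MUT embryo 23. The classes cut a continuous range: 31 of the 164 cells lie within 0.1 of a cut.

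**Figure D3:**
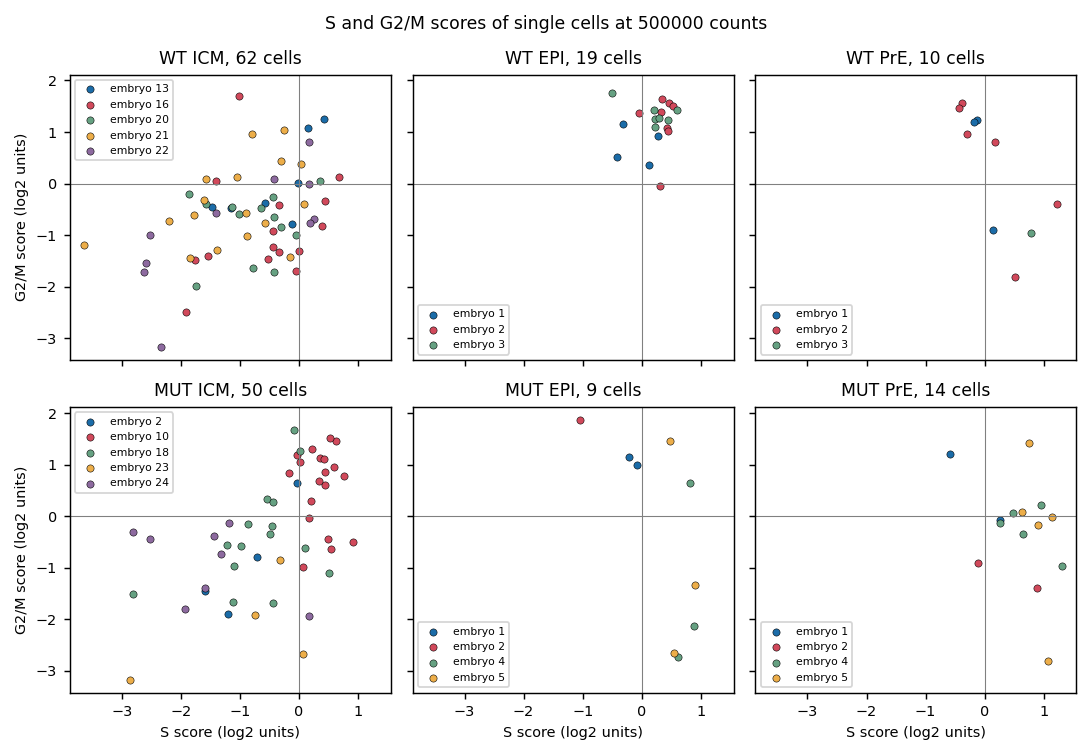
S score (x axis) and G2/M score (y axis), both in log2 units, of 164 cells thinned to 500000 counts, with WT groups above and MUT groups below and colours for embryos within a panel. Most WT EPI cells lie close together at high G2/M score, while MUT EPI cells are spread over the upper left, upper right and lower right quadrants.

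The comparison of genotypes in the ICM called no member. edgeR's quasi-likelihood test passed 0 of 42 members and 0.0% of 12270 genes at an adjusted p of 0.05, DESeq2 called 0 members beside 0.848% of genes and limma 0 beside 0.0163%. At an unadjusted p under 0.05 there were 4 members, beside 6.64% of all genes. The fold change was above 0 for 5 of 20 S members (median log2 fold change -0.41) and 7 of 22 G2/M members (-0.40), beside 47.6% of all genes and a median of -0.05. Without MUT embryo 10 the medians were -0.43 and -0.41, with 0 members called. Rrm2, which makes deoxynucleotides for replication, stood at 535, 782, 498, 491 and 767 CPM in WT embryos 13, 16, 20, 21 and 22 and at 346, 254, 318, 187 and 83.3 CPM in MUT embryos 2, 10, 18, 23 and 24. The groups do not overlap, which held for 2 of 42 members, beside 1.56% of all genes. The log2 fold change of Rrm2 was -1.38 ± 0.39 (SE; edgeR adjusted p = 0.727). Cdt1, the licensing factor that loads the helicase, was 83.3, 25.3, 30.6, 10.03 and 18.5 CPM in the same WT embryos and 150.4, 193, 134, 137 and 33.2 CPM in the same MUT embryos. It overlaps only through WT embryo 13 and MUT embryo 24, with a log2 fold change of 1.92 ± 0.63 (edgeR adjusted p = 0.727). With the title letter as a covariate, limma-voom, fitted to sums per embryo and letter with embryos as random blocks, called Rrm2 (adjusted p = 0.0031), Cdt1 (0.00516) and Mcm6 (0.033). That fit tested 9554 genes, called 4.76% of them and had a median of 0.41 over all genes, beside -0.42 for the S and 0.015 for the G2/M members.

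Between genotypes in EPI, 0 of 42 members passed, beside 0.0% of 12298 genes, by edgeR, 0 beside 1.52% by DESeq2 and 0 beside 0.0% by limma, and 1 member had an unadjusted p under 0.05, beside 4.63% of genes. That member was Kif23, a kinesin of the central spindle needed for cytokinesis, at 58.8, 163 and 91.5 CPM in WT embryos 1, 2 and 3 and at 65.9, 40.7, 21.5 and 35.2 CPM in MUT embryos 1, 2, 4 and 5. Only MUT embryo 1 reaches into the WT range, and the log2 fold change was -1.36 ± 0.48 (edgeR adjusted p = 0.747). Rrm2 was 361, 373 and 213 CPM in WT and 146, 241, 118 and 244 CPM in MUT, which overlap. Ccna2 was the 1 member that was lower in MUT with no overlap, beside 5.37% of genes. The list medians were 0.14 for S and -0.09 for G2/M, beside 0.04 for all genes, and the G2/M median was -0.50 without the single cell of MUT embryo 2 and -1.23 with the title letter as a covariate, beside 0.03 for all genes in that fit. Only letter A held both genotypes at E3.75, so the letter fit sets WT embryo 3 against MUT embryos 4 and 5.

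In PrE the genotypes also gave 0 of 42 members past the threshold, beside 0.0% of 11765 genes, by edgeR, 0 beside 1.33% by DESeq2 and 0 beside 0.0% by limma, and 3 with an unadjusted p under 0.05, beside 4.63%. These were Mcm7, Rrm1 and Slbp, which were higher in MUT and did not overlap between the groups, beside 6.68% of genes. Mcm7, a helicase subunit, stood at 185, 201 and 300.2 CPM in WT embryos 1, 2 and 3 and at 329, 444, 328 and 376 CPM in MUT embryos 1, 2, 4 and 5 (log2 fold change 0.66 ± 0.23, edgeR adjusted p = 0.975). Rrm1, the large subunit of ribonucleotide reductase, stood at 259, 222 and 181 CPM in WT and 270.3, 344, 324 and 480.1 CPM in MUT (0.66 ± 0.23, edgeR adjusted p = 0.975). Mcm7 shares exonic positions with genes on both strands. The list medians were 0.11 for S and -0.17 for G2/M, beside 0.03 for all genes, and were 0.01 and 0.03 without WT embryo 1, the sum with the trophectoderm markers. The sign of the G2/M median turned with a covariate: it was 0.64 with the title letter and 1.08 with embryo sex, beside 0.40 and 0.46 for all genes in those fits. WT embryos 1 and 2 were female with letter C, and no MUT embryo of E3.75 was female or had that letter. The genotype effect in both fits therefore rests on WT embryo 3, a single cell.

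In the fits within one genotype, most G2/M members were lower in PrE than in EPI, while no member passed the test. In MUT the median of the G2/M members changed sign without the single cell of EPI embryo 2. In WT, 2 of 22 G2/M members (median log2 fold change -0.67) and 13 of 20 S members (0.19) were higher, beside 48.3% of 12733 genes with a median of -0.03. In MUT, 5 of 22 G2/M members (-0.59) and 12 of 20 S members (0.12) were higher, beside 49.2% of 10698 genes with a median of -0.02. edgeR called 0 of 42 members in either genotype, beside 0.0314% of genes in WT and 1.65% in MUT; 5 members in WT and 8 in MUT had an unadjusted p under 0.05, beside 9.35% and 10.2%. DESeq2 called Nusap1 and Bub1b in WT and Ccnb1 in MUT, beside 5.74% and 6.04% of genes, and limma called 0 members in either, beside 0.055% and 3.0%. EPI and PrE come from the same embryos, and with the embryo as a block edgeR called 0 genes in WT and 74 in MUT, against 4 and 177, with no member among them; the G2/M medians were then -0.86 and -0.28.

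The difference moved with the 2 single-cell sums. Without WT PrE embryo 3 the G2/M median in WT was -0.24, and without MUT EPI embryo 2 it was 0.05 in MUT, the other sign. Without WT embryo 1, whose PrE sum holds the trophectoderm markers, the WT median was -1.04. Embryo by embryo, the median G2/M difference between PrE and EPI was 0.22, -0.37 and -1.92 in WT embryos 1, 2 and 3 and 0.01, -2.19, 0.55 and -0.06 in MUT embryos 1, 2, 4 and 5. Bub1, a spindle checkpoint kinase, was lower in PrE in 7 of 7 embryos, while Cdc6 and Cdt1, the helicase loaders, were higher in PrE in 7 of 7. These counts of 1 and 2 of 42 members stand beside 4.89% of 10429 genes lower and 5.22% higher in 7 of 7 embryos. In the 5 embryos without a single-cell sum, 4 members were lower in each and 5 higher, beside 8.43% and 9.18%.

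Nusap1, a microtubule-bundling protein of the spindle, stood at 134, 241 and 279 CPM in WT EPI embryos 1, 2 and 3 and at 49.9, 59.1 and 16.5 CPM in WT PrE. The lineages do not overlap, which held for 7 of 42 members, beside 18.4% of genes, and the log2 fold change was -2.39 ± 0.54 (edgeR adjusted p = 0.228). Its exons overlap those of Oip5 on the other strand. Bub1b, the checkpoint protein BUBR1, was 147, 165 and 202 CPM in WT EPI and 103, 89.5 and 62.9 CPM in WT PrE (-1.02 ± 0.27, edgeR adjusted p = 0.253). In MUT, Ccnb1, the cyclin that activates CDK1 for mitosis, stood at 649, 981, 344 and 523 CPM in EPI embryos 1, 2, 4 and 5 and at 340.5, 226, 354 and 329 CPM in PrE (-1.02 ± 0.31, edgeR adjusted p = 0.191); EPI embryo 4 lies in the PrE range. Ccna2, the cyclin A that serves both S phase and G2, went the other way, from 282, 218, 250.1 and 167 CPM in MUT EPI to 408, 292, 400.3 and 293 CPM in MUT PrE, with no overlap (0.59 ± 0.22, edgeR adjusted p = 0.340). It was 1 of 3 members higher in MUT PrE with no overlap, beside 5.97% of genes.

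Between the stages 1 member was called. Slbp, which binds the stem-loop of histone mRNAs made in S phase, fell from WT ICM to WT EPI. It stood at 254, 555, 371, 234 and 517 CPM in WT ICM embryos 13, 16, 20, 21 and 22 and at 75.2, 89.1 and 90.8 CPM in WT EPI embryos 1, 2 and 3, with a log2 fold change of -2.16 ± 0.35 (edgeR adjusted p = 0.0429). It was the only 1 of 42 members past the threshold, beside 0.308% of 13972 genes, and the call was lost in 6 of 8 fits without 1 embryo, with adjusted p up to 0.278, and with limma (0.0501). In the other 3 stage comparisons edgeR called 0 of 42 members, beside 0.0682% of genes from MUT ICM to MUT EPI, 0.349% from WT ICM to WT PrE and 0.507% from MUT ICM to MUT PrE. The number with an unadjusted p under 0.05 was 13, 3, 9 and 3 members in the same order, WT EPI first, beside 14.1%, 8.08%, 14.8% and 9.46% of genes. In that order DESeq2 called 6, 0, 4 and 2 members, beside 7.77%, 3.43%, 9.04% and 4.68%, and limma 15, 0, 7 and 2, beside 29.0%, 1.9%, 15.7% and 5.23%. The comparisons within a genotype share their ICM sums. Slbp was 158, 94.4, 217, 288 and 379 CPM in MUT ICM embryos 2, 10, 18, 23 and 24 and 38.1, 105, 137 and 104 CPM in MUT EPI (-1.26 ± 0.50, edgeR adjusted p = 0.480). It was 74.5, 118 and 131 CPM in WT PrE, below every WT ICM sum (-1.80 ± 0.39, edgeR adjusted p = 0.0836). Groups without overlap held for 12 of 42 members from WT ICM to EPI, beside 15.3% of genes, and for 7 to PrE, beside 14.5%. Exons of Slbp overlap those of Gm10459 on the other strand.

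The S list did not move one way between WT ICM and WT EPI. Of its members 8 had an unadjusted p under 0.05 with a lower level in EPI, beside 8.05% of genes, and 2 with a higher level, beside 6.02%. Lower were Slbp, Gins2, Rrm2, Cdc45, Mcm4, Pcna, Cdc6 and Tyms, and higher were Cdt1 and Mcm6. Gins2 was 172, 188, 113, 236 and 207 CPM in the WT ICM embryos and 61.2, 71.5 and 64.3 CPM in WT EPI (-1.47 ± 0.32, edgeR adjusted p = 0.0794). Cdt1, given above for WT ICM, was 117, 159 and 135 CPM in WT EPI (2.01 ± 0.62, edgeR adjusted p = 0.181) and 169, 165 and 215 CPM in WT PrE (2.45 ± 0.63, edgeR adjusted p = 0.133), above all WT ICM sums in both. Of the G2/M members, Ube2c stood at 273, 274, 186, 343 and 245 CPM in WT ICM and 365, 635 and 742 CPM in WT EPI (1.14 ± 0.29, edgeR adjusted p = 0.108). In MUT it was 258, 149, 488, 254 and 286 CPM in the ICM and 788, 1291, 178 and 461 CPM in EPI (1.23 ± 0.52, edgeR adjusted p = 0.542), with EPI embryo 4 inside the ICM range.

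From MUT ICM to MUT PrE the smallest p values belonged to Cdk1 and Ccne1. Cdk1, the kinase of mitotic entry, was 379.9, 294, 526, 489 and 369 CPM in MUT ICM embryos 2, 10, 18, 23 and 24 and 275, 82.8, 116 and 194 CPM in MUT PrE embryos 1, 2, 4 and 5, with no overlap (-1.31 ± 0.40, edgeR adjusted p = 0.199). Ccne1, cyclin E1, was 19.8, 28.2, 28.8, 40.8 and 1.19 CPM in the ICM and 66.7, 178, 69.7 and 191 CPM in PrE, again with no overlap (2.40 ± 0.76, edgeR adjusted p = 0.226). No overlap held for 4 of 42 members, beside 6.82% of genes. Both were called by DESeq2 and by limma. In MUT EPI Ccne1 was 0.564 and 0.667 CPM in embryos 1 and 2 (title letter B) and 41.0 and 60.8 CPM in embryos 4 and 5 (letter A). The S score, also higher in embryos 4 and 5, includes Ccne1 and is no separate observation.

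The stage difference had the same sign in scores and sums for some groups and lists and not for others. From WT ICM to WT EPI the per-cell scores were higher by 0.773 for S and by 1.82 for G2/M, whereas the edgeR list medians were -0.51 and 0.06, beside -0.14 for all genes. From WT ICM to WT PrE the scores were higher by 0.800 and 1.07, and the edgeR medians were -0.39 and -0.52, beside -0.17 for all genes. In MUT the scores were higher by 0.655 and 0.619 in EPI and by 1.05 and 0.565 in PrE, and the medians were 0.05 and 0.14 in EPI, and 0.32 and -0.23 in PrE. Without single-cell sums the G2/M median was -0.25 from MUT ICM to EPI and -0.13 from WT ICM to PrE, and the G2/M score difference in the former was -0.0453. A fit of limma to embryo means of log values over cells, which weights cells equally, put the median of all genes 0.54 to 0.68 above 0 in these 4 comparisons, beside member medians of 0.79 to 1.15 for S and 0.22 to 1.41 for G2/M. Genes detected per thinned cell had medians of 6135 in WT ICM and 7346 in MUT ICM and of 7974 to 8877 at E3.75.

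**Figure D4:**
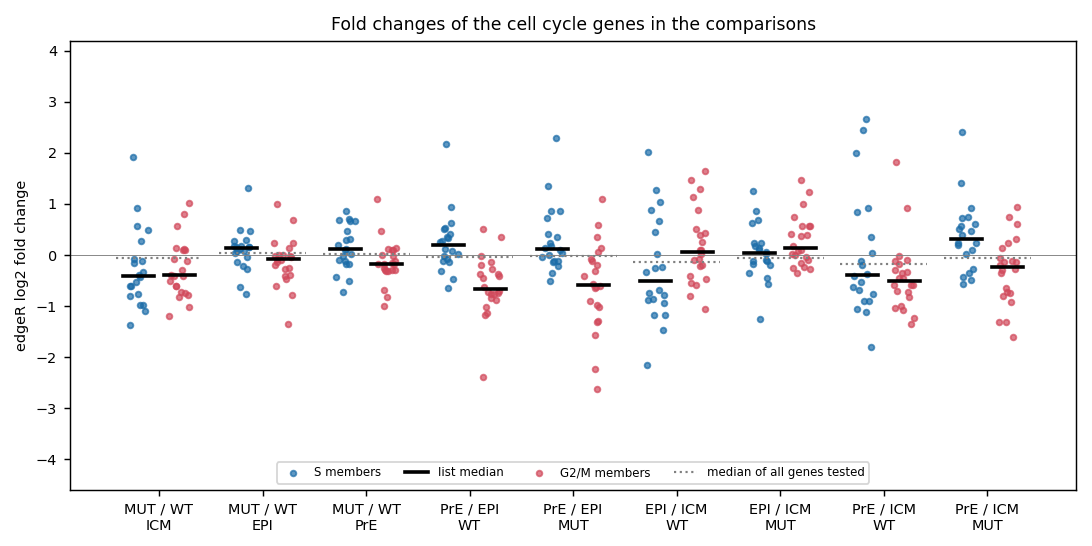
edgeR log2 fold change of each S (blue) and G2/M (red) gene in 9 comparisons, named on the x axis as first group over second, with list medians as black bars and the median of all genes tested as dotted lines. The G2/M bars lie lowest in the 2 comparisons of PrE with EPI, at -0.67 and -0.59. The bar of MUT changed sign without the single cell of EPI embryo 2.

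The difference of genotype effects was tested between lineages and between stages, and 0 of 42 members passed in each of the 3 tests by edgeR, beside 0.0% of 14220, 15756 and 15614 genes. DESeq2 also called 0 members, beside 2.34%, 3.18% and 3.42%, and limma 0, beside 0.0%. At an unadjusted p under 0.05 there were 0 members for PrE against EPI, 4 for EPI against ICM and 3 for PrE against ICM, beside 5.51%, 9.25% and 9.2% of genes. The S and G2/M medians were 0.18 and 0.03, 0.54 and 0.29, and 0.46 and 0.31, beside 0.08, -0.10 and 0.04 for all genes. Without single-cell sums the G2/M medians were 0.41, -0.24 and -0.04. The smallest p for PrE against EPI were those of Rrm1 (0.83 ± 0.42, edgeR adjusted p = 0.915) and Kif23 (1.27 ± 0.68, 0.939). For EPI against ICM they were those of Gins2 (1.29 ± 0.56, edgeR adjusted p = 0.467) and Cdt1 (-1.87 ± 0.82, 0.488). Gins2 was 122, 49.5, 88.0, 165 and 101 CPM in MUT ICM and 109, 47.1, 100.3 and 115 CPM in MUT EPI, which overlap, unlike the WT groups. For PrE against ICM the smallest p were those of Slbp (1.47 ± 0.55, edgeR adjusted p = 0.427) and Cdt1 (-2.04 ± 0.81, 0.442), with Slbp at 179, 181, 187 and 162 CPM in MUT PrE and Cdt1 at 214, 87.1, 222 and 161.

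**Figure D5:**
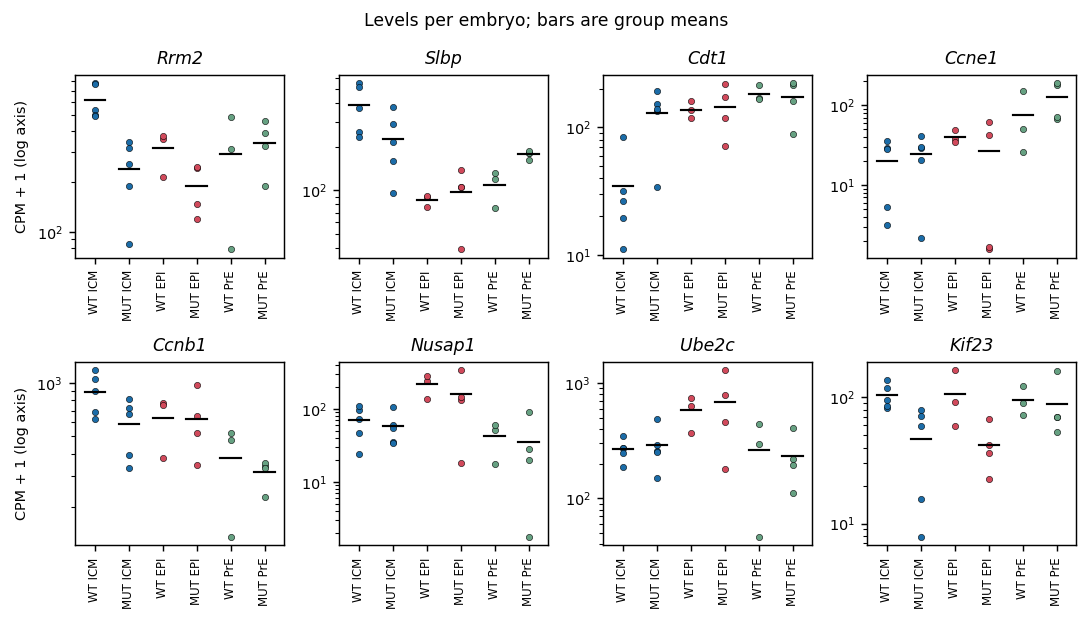
CPM + 1 on a log axis of 8 of the genes in each sum (points) of the 6 groups, with group means as bars. Slbp is lower in WT EPI than in WT ICM, Cdt1 has its lowest mean in WT ICM, and Ccne1 spans more than a decade in MUT EPI.

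Other genes of the cycle were taken from 4 lists. Among 34 other DNA replication genes no gene was called by edgeR in any of the 9 comparisons of groups, beside 0.0% to 1.65% of all genes. The largest number with an unadjusted p under 0.05 was from WT ICM to WT EPI, 15 of 34 genes beside 14.1% of all, and DESeq2 called 9 there beside 7.77%. In the other 8 comparisons 1 to 6 had an unadjusted p under 0.05, beside 4.63% to 14.8%, and DESeq2 called 0 to 4, beside 0.848% to 9.04%. Among 40 other mitotic genes the calls were Mybl2 and Ect2, 1 gene each in a comparison in which 1.65% and 0.308% of all genes were called. Mybl2, the MYB factor of the complex that activates G2/M genes, fell from EPI to PrE in MUT, from 183, 468, 359.8 and 309 CPM to 103, 138, 113 and 134 CPM (-1.45 ± 0.29, edgeR adjusted p = 0.0451). The call was lost with the embryo as a block (edgeR adjusted p = 0.0913), without the single-cell sum (0.0730) and in 4 of 4 fits without 1 embryo (0.0502 to 0.216). Ect2, an exchange factor for cytokinesis, rose from WT ICM, where it stood at 21.8 to 34.7 CPM, to WT EPI at 71.0, 203 and 159 CPM (2.44 ± 0.40, edgeR adjusted p = 0.0429). Pkmyt1, an inhibitory kinase of CDK1 and the only call among 24 CDK inhibitor and checkpoint genes, rose in the same comparison from 3.06 to 7.39 CPM in WT ICM to 59.4, 40.1 and 51.7 CPM in WT EPI (3.37 ± 0.54, edgeR adjusted p = 0.0429). Among 8 fits without 1 embryo, the call of Ect2 was lost in 7, with adjusted p up to 0.282, and that of Pkmyt1 in 6, with adjusted p up to 0.278.

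Of 23 G1 cyclins, CDKs, E2F and pocket proteins 18 to 21 were tested in a comparison and edgeR called 0. At an unadjusted p under 0.05 there were 1 to 4, beside 4.63% to 14.8% of all genes, and DESeq2 called 0 to 2, beside 0.848% to 9.04%. Ccnd3 was the cyclin D with the most counts, at 122 ± 135 CPM in WT ICM (n = 5), 372 ± 120.0 in WT EPI (n = 3) and 195 to 265 CPM in the means of the other 4 groups. Ccnd1 had group means of 4.02 to 20.3 CPM, and Ccnd2 had 0 CPM in both ICM groups and MUT EPI and at most 0.711 CPM in any other sum. Of the CDK inhibitors, Cdkn1b, p27, had group means of 1.07 to 10.3 CPM and Cdkn1c, p57, of 0 to 3.99 CPM. Cdkn1a, p21, stood at 8.41, 40.9 and 5.92 CPM in WT EPI and 0, 0.0953, 5.76 and 0.793 CPM in MUT EPI, and at 26.5, 3.44 and 46.9 CPM in WT PrE and 2.88, 0.0480, 0.0353 and 0 CPM in MUT PrE. Neither pair of groups overlapped, beside 5.37% of genes lower without overlap in EPI and 3.09% in PrE, and the log2 fold changes were -3.45 ± 1.94 (edgeR adjusted p = 1.0) and -5.13 ± 2.30 (adjusted p = 1.0). In the ICM Cdkn1a ran from 0 to 73.0 CPM in WT and from 1.69 to 53.3 CPM in MUT, which overlap.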

How the data were processed

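The authors deposited counts, whole numbers per gene without normalization, for 171 cells, and every column entered the analysis. STAR, HTSeq and the mm10 build are named per the submitters' processing notes, with versions, strand setting and library method not given in the sources used here. Of 49671 rows, 49326 matched GENCODE vM21; the 345 others held 0.0101% of counts and no row was a summary row.

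Titles carry a number after the genotype that was taken for the embryo, without a statement in the labels. Sums over the cells of 1 embryo and lineage were formed from raw counts. Each comparison was fitted on its own groups with edgeR 4.0.16 (R 4.3.3; quasi-likelihood, robust, TMM, filterByExpr with a minimum count of 10, two-sided, Benjamini-Hochberg over all genes tested, threshold 0.05); all 42 members passed the filter. The SE is the fold change over the square root of F and restates the test. Printed CPM values are scaled over all 24 sums. Nothing states whether the embryos of a group come from separate litters. On simulated data with 200 genes changed 4-fold, 53.5% to 85.0% were recovered with 3 to 6 false calls in each of the 9 comparisons of groups. Every simulated gene had the same fixed dispersion, which was not estimated from these data. The recovered share therefore does not say how many 4-fold changes would be called here. EPI and PrE of an embryo are pairs, and their deviations correlated at 0.0421 to 0.144 over genes.

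Scores used Python 3.11.15 with numpy 2.4.6, pandas 2.3.3 and scipy 1.17.1, and figures matplotlib 3.10.9. No doublets were searched for and no cells clustered. The binomial intervals cover the sampling of cells only. Alternatives were RLE scaling, no filter, DESeq2 1.42.0, limma 3.58.1 on embryo means, shallow cells, single-cell sums or single embryos left out, sex, letter or replicate terms, and, for scores, other depths, a pseudocount of 10, means over cells and lists without Mcm5 and Ccnb1. Named members are those past the threshold, or else the 2 of smallest p, the extremes per kb, and Mcm5, Pcna, Ccne1, Ccnb1, Cdk1 and Mki67; from other lists up to 3 called genes and the cyclin D and CIP/KIP genes. The members and lists were chosen with earlier results of these data known.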

Additional observations from a re-analysis of the deposited data

Results flagged for a closer look

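Of 64 tests of a lone extreme embryo in groups of 4 or 5, 3 exceeded Dixon's 95% limit, and chance alone gives about 1 in 20. In MUT PrE, Bub1b stood at 154 CPM in embryo 1, where the next highest was 74.9 and the lowest 71.7. In the same embryo Kif23 stood at 162 CPM, with 69.6 next and 52.6 lowest. In WT ICM, Cdt1 stood at 83.3 CPM in embryo 13, with 30.6 next and 10.03 lowest.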

How the results depend on the processing

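The limits are 3 to 5 embryos per group, sums of 1 to 19 cells, and a stage difference that depth and title letter share. The named members were picked as called or of smallest p in the main fits, and the refits share their counts. That choice favours a kept sign. No named fold change reversed in 265 refits, while 7 lost and 13 gained the threshold. Of 498 refits of list medians and score differences, 54 had the other sign. The cause of these shifts was not tested.

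With the title letter, limma-voom called 3 members in the ICM, with a G2/M median of 0.015, and edgeR gave G2/M medians of -1.23 in EPI and 0.64 in PrE, beside 0.03 and 0.40 for all genes. At E3.75 the genotype effect of the letter fits rests on WT embryo 3, which is a single cell in PrE. With embryo sex, PrE gave medians of -0.33 (S) and 1.08 (G2/M), while the median of all genes moved to 0.46. That fit rests on the same single cell, the only male WT sum in PrE. DESeq2 called 2 members between lineages in WT and 1 in MUT, 6 from WT ICM to WT EPI, 4 to WT PrE and 2 from MUT ICM to MUT PrE. limma on embryo means called 15, 7 and 2 members from WT ICM to EPI, WT ICM to PrE and MUT ICM to PrE. Its S and G2/M medians were 0.81 and 1.41 (WT EPI), 0.83 and 0.97 (MUT EPI), 0.79 and 0.22 (WT PrE) and 1.15 and 0.39 (MUT PrE), and it gave -0.87 for G2/M between genotypes in EPI, 0.074 for S between lineages in WT and -0.35 for G2/M in the interaction of genotype with EPI against ICM. Without single-cell sums the S median was 0.065 between lineages in WT and 0.71 in the interaction with PrE against ICM. A pseudocount of 10 gave score differences of 0.44 (S) and 1.27 (G2/M) from WT ICM to WT EPI.

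Leaving out 1 embryo gave 0 to 3 calls from WT ICM to EPI, where 0 calls remained without EPI embryo 1, 2 or 3 or ICM embryo 16, 20 or 21, and 3 without ICM embryo 13. To PrE it gave 0 to 1, the call being without ICM embryo 13. The S medians ran from -0.63 to -0.38 and from -0.50 to -0.25 in these comparisons, from -0.071 to 0.29 between genotypes in PrE and from 0.079 to 0.29 between lineages in WT. The replicate block between lineages changed no member's call, though that of Mybl2 was lost. MUT and WT embryos of E3.75 share numbers but differ in genotype and so are not the same embryos. Deviations of sums with the same number correlated at -0.0353 to 0.127. That range overlaps the 0.0421 to 0.144 of EPI and PrE of an embryo, so the measure does not tell pairs from other sums. A replicate block on these numbers called 0 members. It gave an S median of -0.74 in EPI, where the median of all genes was -0.30.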
